A study of Mus musculus with 6 samples.

Results

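The genes described here encode 33 plasma proteins of blood clotting and of the complement system upstream of C5. They were taken by gene symbol from a fixed list, and all 33 were found among the 15960 genes of the table. Of these, 20 belong to clotting, its inhibitors and fibrinolysis, and 13 to complement. The data are liver RNA from 6 mice of strain C57BL/6, aged 22 weeks and fed a high-fat diet for 14 weeks. The mice were Cyp2e1-/- (knockout, n = 3) or Cyp2e1+/+ (wild type, n = 3), so every animal had the diet, and the groups differ in the labels only by the genotype of Cyp2e1, a cytochrome P450 of hepatocytes. Not given in the sources used here are the making of the null allele, the sex of the mice and whether they were littermates. Each library is 1 numbered sample, so a p-value here measures only how far these samples spread, which may be technical. The comparison asks how the level of each mRNA differed between knockout and wild type.

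Hepatocytes secrete most circulating clotting factors and complement proteins. In clotting, serine proteases activate each other in turn until thrombin cuts fibrinogen to fibrin, serpins and the protein C system hold the proteases back, and plasmin dissolves the clot. In complement, antibody-bound C1 or mannose-binding lectins with their MASP proteases cut C4 and C2, the resulting enzyme cuts C3, and factor B amplifies that step. Several of these proteins, fibrinogen and C3 among them, are acute phase proteins whose synthesis in liver responds to interleukin signals.

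The unit is FPKM, fragments scaled to transcript length and to library size, so levels of different genes can be set side by side per length. Genes were tested with limma on log2(FPKM + 1), and a gene was called when its p-value, adjusted over all 9968 tested genes by Benjamini-Hochberg, was under 0.05. The libraries summed to 562590 to 624264 FPKM. Steps in the low values put the depth of the libraries at about 10840000 fragments in knockout replicate 1 and 8060000 to 8900000 in the other 5. At that depth, with the longest transcript of each gene as its length, Pros1 was the most thinly covered member. It had about 352 fragments in its lowest library, a counting error of about 5.33%. Shorter transcripts would give fewer fragments and larger errors, and could change which member is lowest. Cyp2e1 stood at 254, 247 and 271 FPKM in knockout livers and 7427, 5942 and 6071 in wild type, as labelled. The libraries numbered 1 stood apart: the knockout one correlated more with wild type replicate 1 (r = 0.985 over tested genes) than with knockout replicates 2 and 3 (0.981 and 0.979), and wild type replicate 1 more with it than with wild type replicates 2 and 3 (0.979 each). The defining hepatocyte products were present in every library. Albumin (Alb) averaged 30269 ± 3205 FPKM in knockout livers and 26283 ± 2215 in wild type (SD, n = 3 each).

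None of the 33 genes passed the test with all 6 libraries, against 0.762% of all tested genes (76 of 9968). At an unadjusted p under 0.05 there were 6, all lower in the knockout, against 9.93% of tested genes in either direction and 5.89% lower. Among the 2787 tested genes at least as abundant on average as the lowest member, Masp1, it was 13.5% in either direction. Of the 2787, 233 were lower in the knockout at that p. With the replicate number as a block in the fit none of the 33 was called either, against 0.722% of tested genes. All 33 stood at 8.63 FPKM or more in every library, so the filter on low values removed none. The log2 fold changes, knockout minus wild type, ran from -0.43 for Cpb2 to 0.23 for F12, and the 95% intervals of all 33 lay within 1 log2 unit of 0 in both directions. The median was -0.11 over the 20 clotting genes and -0.067 over the 13 complement genes, beside -0.028 over all tested genes, and whether clotting and complement differ was not tested. The complement median turned positive when 1 library was left out, to 0.062 without knockout replicate 1 and to 0.023 and 0.022 without wild type replicate 2 or 3, and it was 0.0017 without replicate 1 of both genotypes. For 10 of the 33, 9 of them in clotting, the genotypes did not overlap, with every knockout library lower. That ordering held for 1001 of the 9968 tested genes and for 13.6% of the 2787, and a lack of overlap in either direction for 15.4% and 19.7%. In bulk tissue, fewer cells of a type and less RNA per cell cannot be told apart.

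**Figure D1:**
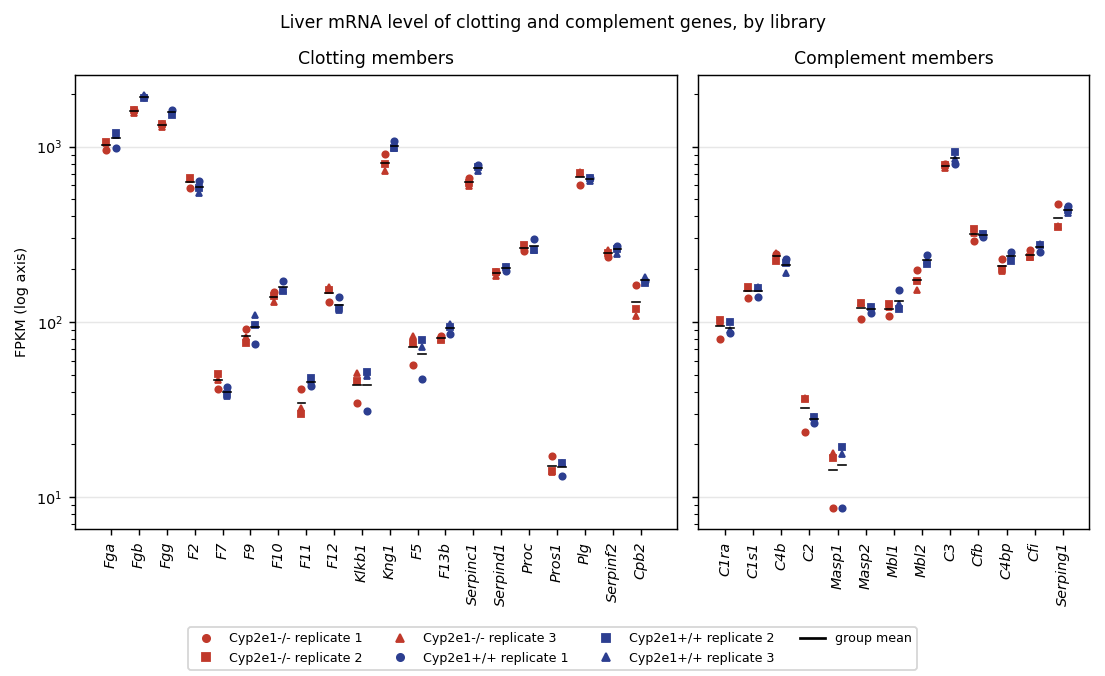
FPKM of the 20 clotting genes (left) and 13 complement genes (right) on a log axis, with 1 point per library and a bar at each group mean (n = 3). Fgb is the most abundant at 1548 to 1965 FPKM, and the lowest points are the libraries numbered 1 for Masp1, at 8.63 and 8.72.

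Fibrinogen is built from 3 chains, and their genes Fgg, Fga and Fgb lie side by side on chromosome 3. They were the most abundant mRNAs of the set. Fgb (gene 110135, chromosome 3, 83042246 to 83049863, GRCm38) stood at 1624, 1613 and 1548 FPKM in knockout replicates 1 to 3 and at 1915, 1904 and 1965 in the wild type. Every knockout value lay below every wild type value, and the spread within a genotype was small, with 99.7% of tested genes having a larger one. The log2 fold change was -0.27 (SE 0.12; 95% interval -0.54 to -0.0063; limma, adjusted p = 0.49), a group mean 0.827 of the wild type. Fgg gave 1347, 1353 and 1293 FPKM in the knockout against 1620, 1511 and 1594, again without overlap (log2 fold change of -0.24 with an SE of 0.12; adjusted p = 0.55 by limma). Fga overlapped: the knockout stood at 953, 1061 and 1051 FPKM, and wild type replicate 1 at 984 lay among them, below wild type replicates 2 and 3 at 1200 and 1167. The ratio of Fgb to Fgg mRNA was 1.19 to 1.21 in knockout livers and 1.18 to 1.26 in wild type. The ratio of Fgb to Fga was highest in replicate 1 of each genotype, at 1.70 in knockout livers and 1.95 in wild type, against 1.47 to 1.68 in the other libraries.

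The 3 fibrinogen promoters are shown because their genes are neighbours and their mRNAs the most abundant of the set. The sequences are the 250 bases before the RefSeq start (GRCm38.p6), on the strand of the gene. Capitals mark matches to 3 motifs searched on both strands: GTTAAT, a short core of the site of the hepatocyte factor HNF1; TTNNGCAA, a C/EBP core; and CTGGGAA, a response element of interleukin-6 signalling. No matches overlapped in these windows.
Fga (chr3:83025903-83026152, plus strand): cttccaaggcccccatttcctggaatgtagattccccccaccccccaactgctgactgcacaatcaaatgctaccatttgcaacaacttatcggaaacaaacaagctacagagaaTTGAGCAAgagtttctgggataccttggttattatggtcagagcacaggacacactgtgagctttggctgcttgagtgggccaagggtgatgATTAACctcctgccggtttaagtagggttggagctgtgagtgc
Fgb (chr3:83049864-83050113, minus strand): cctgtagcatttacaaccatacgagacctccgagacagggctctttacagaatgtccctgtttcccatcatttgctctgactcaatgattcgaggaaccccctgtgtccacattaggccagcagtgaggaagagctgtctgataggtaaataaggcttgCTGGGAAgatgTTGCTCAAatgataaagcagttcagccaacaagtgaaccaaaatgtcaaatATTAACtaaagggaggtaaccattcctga
Fgg (chr3:83007474-83007723, plus strand): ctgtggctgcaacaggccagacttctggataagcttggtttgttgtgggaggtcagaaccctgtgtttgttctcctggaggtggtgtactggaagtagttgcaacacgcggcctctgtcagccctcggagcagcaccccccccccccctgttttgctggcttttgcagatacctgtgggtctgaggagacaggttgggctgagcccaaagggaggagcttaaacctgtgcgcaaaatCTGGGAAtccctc
Fgb held all 3 motifs, with CTGGGAA at 91 to 85 bases and the C/EBP match at 80 to 73 bases before the start. Fga held the C/EBP core at 135 to 128 bases and the HNF1 core at 43 to 38 bases, and Fgg held CTGGGAA alone, at 13 to 7 bases. Promoter entries were matched for 24 of the 33 genes. The HNF1 core was in 5 of these 24 (Fga, Fgb, F13b, C4bp and C1ra), against 6.43% of all 32851 promoter windows. The C/EBP core was in 7 (Fga, Fgb, F9, F11, Klkb1, C3 and C1s1), against 9.56%. CTGGGAA was in 5 (Fgb, Fgg, F9, Masp2 and C1ra), against 9.10%. A match is a description of the letters in these windows and says nothing of binding in these livers.

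Among the vitamin K-dependent procoagulant proteases, levels went both ways and none was called. F2, prothrombin, was the most abundant. Its FPKM was 579, 661 and 656 in knockout livers and 638, 583 and 546 in wild type, so the genotypes overlapped (log2 fold change 0.10, 95% interval -0.17 to 0.38). F7, factor VII, which starts clotting with tissue factor, had the smallest p of the group. It stood at 41.4, 50.7 and 46.8 FPKM in knockout livers and 42.4, 38.8 and 37.9 in wild type (log2 fold change of 0.21 with an SE of 0.12; adjusted p = 0.63 by limma), and only wild type replicate 1 reached into the knockout range. F10, factor X, which forms the enzyme that cuts prothrombin, showed the opposite order without overlap, at 130 to 148 FPKM in knockout livers and 150 to 172 in wild type. F9, factor IX, was split by replicate: in replicates 2 and 3 the knockout (75.9 and 82.4 FPKM) lay below wild type (96.2 and 110), while in replicate 1 it lay above (91.4 against 74.5).

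The contact system starts clotting on surfaces and frees bradykinin. F11, factor XI, had the smallest p of all clotting members (gene 109821, chromosome 8, 45240659 to 45262055). Its FPKM was 41.4, 29.9 and 32.4 in knockout livers and 43.2, 47.96 and 45.9 in wild type. The genotypes did not overlap, but knockout replicate 1 lay just under the lowest wild type value (log2 fold change of -0.41 with an SE of 0.14; 95% interval -0.72 to -0.091; adjusted p = 0.34 by limma). Kng1, the kininogen that carries bradykinin (gene 16644, chromosome 16, 23058220 to 23082078), gave 903, 791 and 723 FPKM in knockout livers and 1071, 985 and 987 in wild type, also without overlap (log2 fold change of -0.34 with an SE of 0.13; adjusted p = 0.41 by limma). Part of its sequence is shared with Kng2, where 26.5% of the 31-base words of Kng1 transcripts recur, so reads may have been divided. Kng2 showed the same order, at 118 to 138 FPKM in knockout livers and 150 to 169 in wild type. F12, factor XII, had the highest fold change of the 33. It stood at 129, 152 and 159 FPKM in knockout livers and 139, 119 and 117 in wild type, with an overlap in replicate 1 (log2 fold change of 0.23 with an SE of 0.13; adjusted p = 0.62 by limma). Klkb1, plasma prekallikrein, showed no separation by genotype. It was at 34.2 and 30.8 FPKM in the libraries numbered 1 and at 45.8 to 51.6 in the other 4.

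F5 and F13b are not proteases: factor V is the cofactor of factor X, and F13b is the carrier subunit of the enzyme that cross-links fibrin. F13b was the more abundant. It stood at 83.4, 79.1 and 79.7 FPKM in knockout livers and 85.5, 92.96 and 96.9 in wild type, without overlap (log2 fold change of -0.18 with an SE of 0.11; adjusted p = 0.65 by limma). F5 was at 56.5 FPKM in replicate 1 of the knockout and 47.0 in that of the wild type, and at 72.3 to 83.1 in the other 4 libraries. Its spread within a genotype was the third highest of the set, after Masp1 and Klkb1.

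Of the anticoagulant proteins, antithrombin (Serpinc1, gene 11905, chromosome 1, 160978583 to 161002543) was the most abundant and had the smallest p. It gave 658, 618 and 599 FPKM in knockout livers and 781, 768 and 729 in wild type, without overlap (log2 fold change of -0.28 with an SE of 0.11; 95% interval -0.54 to -0.024; adjusted p = 0.45 by limma). Serpind1, heparin cofactor II, was also ordered without overlap, by a small margin: 182 to 193 FPKM in knockout livers and 195 to 207 in wild type. Proc, which encodes protein C, stood at 255, 275 and 267 FPKM in knockout livers and 297, 257 and 259 in wild type. Its cofactor gene Pros1 was the least abundant clotting member, at 17.1, 14.2 and 13.8 FPKM in knockout livers and 13.2, 15.6 and 15.7 in wild type. The genotypes overlapped in both Proc and Pros1, with log2 fold changes of -0.026 and 0.016 and 95% intervals of -0.28 to 0.23 and -0.29 to 0.32.

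In fibrinolysis, Cpb2 had the lowest fold change of the 33. It encodes the carboxypeptidase TAFI, which slows clot lysis by trimming fibrin (gene 56373, chromosome 14, 75242287 to 75283555). The knockout stood at 163, 119 and 108 FPKM and wild type at 172, 167 and 181. Knockout replicate 1 lay close to the wild type and replicates 2 and 3 well below it (log2 fold change of -0.43 with an SE of 0.16; 95% interval -0.78 to -0.084; adjusted p = 0.37 by limma). Leaving out knockout replicate 1 made Cpb2 the only member called (log2 fold change -0.61; limma, adjusted p = 0.030, with 2.12% of tested genes called, 0.873% lower). Plg, plasminogen, was at 606, 703 and 715 FPKM in knockout livers and 659, 662 and 637 in wild type, with no separation (log2 fold change 0.044, 95% interval -0.23 to 0.31). Serpinf2, the plasmin inhibitor, overlapped too, at 236 to 257 FPKM in knockout livers and 244 to 272 in wild type.

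**Figure D2:**
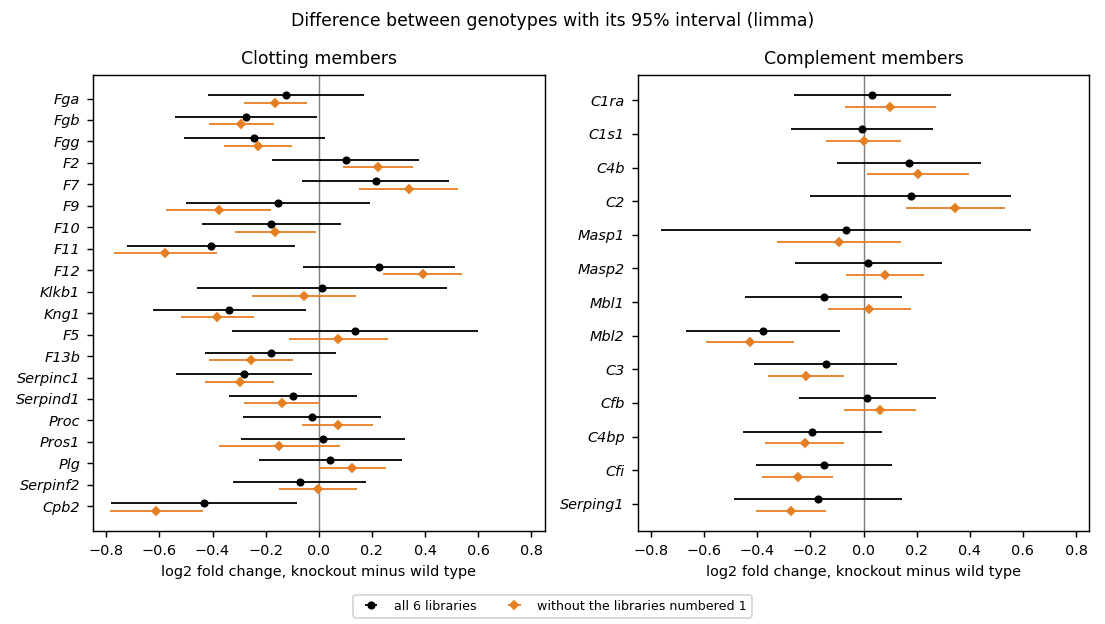
Log2 fold change of each gene (x axis, knockout minus wild type) with its 95% interval from limma, for all 6 libraries (black circles) and for the 4 libraries left without those numbered 1 (orange diamonds). With all libraries the values run from -0.43 (Cpb2) to 0.23 (F12), and the widest interval, that of Masp1, spans -0.76 to 0.63.

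Summed over its 20 genes, clotting took 1.39%, 1.41% and 1.40% of the summed FPKM in knockout livers and 1.48%, 1.63% and 1.62% in wild type. The wild type shares were all above the knockout ones, and that of wild type replicate 1 was the nearest to them. That library had the largest summed FPKM, 624264. Before division its clotting genes summed to 9251 FPKM, against 9196 and 9210 in wild type replicates 2 and 3. The knockout sums were 8158, 8296 and 8077. The sum weighs the most abundant genes most and is no property of the 20 as a set. Fgb averaged 1595 FPKM in knockout livers and 1928 in wild type, and Fgg 1331 and 1575. Of the 20 fold changes, 7 were positive. Summed over 13 genes, complement took 0.501%, 0.488% and 0.489% in knockout livers and 0.489%, 0.562% and 0.538% in wild type. These shares overlapped at wild type replicate 1. The sums before division did not overlap, at 2941, 2868 and 2824 FPKM in knockout livers and 3050, 3160 and 3058 in wild type. They too weigh the most abundant genes most.

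**Figure D3:**
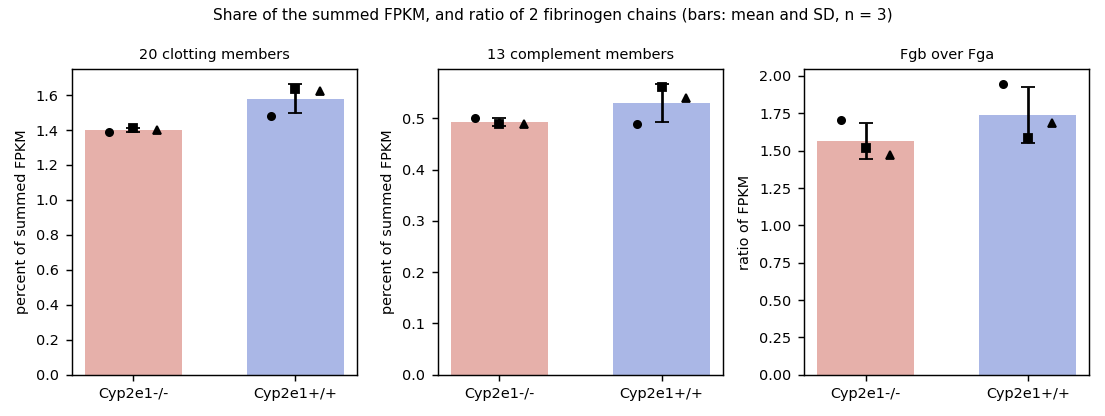
Percent of the summed FPKM taken by the 20 clotting genes and the 13 complement genes, and the ratio of Fgb to Fga FPKM, by genotype. Bars give the mean and error bars the SD (n = 3), points are libraries (circle, square and triangle for replicates 1, 2 and 3). The clotting shares do not overlap (1.39% to 1.41% and 1.48% to 1.63%), and they weigh the most abundant genes, such as Fgb, most.

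In the classical complement pathway 3 of 4 genes had a positive fold change and none was called. C1ra and C1s1 encode the proteases of C1 and lie 6.90 kb apart on chromosome 6. C1s1 stood at 136, 157 and 157 FPKM in knockout livers and 138, 156 and 157 in wild type (log2 fold change -0.0052, 95% interval -0.27 to 0.26). C1ra followed at 80.2, 103 and 100.1 FPKM and 86.0, 99.2 and 90.1. C4b, which is cut to anchor the C3-cutting enzyme on surfaces, was the most abundant of the 4 and had the smallest p. It gave 245, 222 and 246 FPKM in knockout livers and 229, 217 and 189 in wild type, with knockout replicate 2 inside the wild type range (log2 fold change of 0.17 with an SE of 0.12; adjusted p = 0.71 by limma). C2, the protease of that enzyme, was at 23.7, 36.3 and 36.8 FPKM in knockout livers and 26.6, 28.5 and 28.6 in wild type. Knockout replicate 1 was the lowest of the 6 and knockout replicates 2 and 3 the highest (log2 fold change 0.18, 95% interval -0.20 to 0.56).

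The lectin pathway held the complement member with the smallest p and the one with the widest spread. Mbl2, mannose-binding lectin C (gene 17195, chromosome 19, 30232906 to 30239687), stood at 198, 171 and 153 FPKM in knockout livers and 240, 213 and 222 in wild type. It was the only complement gene whose genotypes did not overlap (log2 fold change of -0.38 with an SE of 0.13; 95% interval -0.67 to -0.090; adjusted p = 0.33 by limma). Mbl1, mannose-binding lectin A, was at 108, 127 and 122 FPKM against 152, 119 and 126, and without replicate 1 of both genotypes its log2 fold change was 0.022. The 2 lectin genes share no 31-base word. Masp2, the protease that cuts C4 and C2, was at 104 FPKM in knockout replicate 1 and 129 and 128 in replicates 2 and 3, against 113, 121 and 121 in wild type. Masp1, the protease that activates MASP-2, was the least abundant of the 33. It stood at 8.63 and 8.72 FPKM in the libraries numbered 1 and at 16.6, 17.8, 19.3 and 17.6 in the other 4, and the genotypes overlapped (log2 fold change -0.067, SE 0.31). Only 1.80% of tested genes had a larger spread within a genotype.

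C3, on which all pathways converge, was the most abundant complement mRNA. It gave 793, 783 and 758 FPKM in knockout livers and 791, 936 and 855 in wild type, with wild type replicate 1 inside the knockout range (log2 fold change of -0.14 with an SE of 0.12; adjusted p = 0.78 by limma). Cfb, factor B of the alternative pathway, stood at 290, 338 and 323 FPKM in knockout livers and 306, 316 and 317 in wild type, around the same centre (log2 fold change 0.015, 95% interval -0.24 to 0.27).

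The 3 fluid-phase regulators all had lower means in knockout livers and none was called. Serping1, the C1 inhibitor, which also restrains kallikrein and factor XII, was the most abundant. It stood at 470 FPKM in knockout replicate 1, above every wild type value but level with wild type replicate 1 at 460, while knockout replicates 2 and 3 (349 and 354) lay below wild type replicates 2 and 3 (434 and 415). C4bp, which binds C4b and helps its breakdown, had the smallest p of the group. It gave 228, 201 and 195 FPKM in knockout livers and 250, 223 and 239 in wild type, overlapping by knockout replicate 1 (log2 fold change of -0.19 with an SE of 0.12; adjusted p = 0.66 by limma). Cfi, factor I, the protease that destroys C3b and C4b, was at 258, 235 and 233 FPKM against 249, 276 and 280.

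The 2 libraries numbered 1 were alike for a subset of these genes. In 9 of the 33 both lay below the other 4: Masp1, Klkb1, F5, C2, C1ra, Fga, Masp2, C1s1 and Cfb. The same held for 24.2% of all tested genes, and for 17.7% of those at least as abundant on average as Masp1. In 1, Serping1, both lay above the other 4, against 6.46% of tested genes. The gap between the libraries numbered 1 and the mean of the rest was -0.96 for Masp1, -0.59 for Klkb1, -0.58 for F5 and -0.35 for C2 on the log2 scale. For Masp1 only 0.933% of tested genes had a larger gap in either direction, for Klkb1 4.83% and for F5 5.16%. Among the 5 most abundant members the gaps were 0.013 for Fgb, 0.044 for Fgg, -0.21 for Fga, 0.19 for Kng1 and -0.069 for C3.

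**Figure D4:**
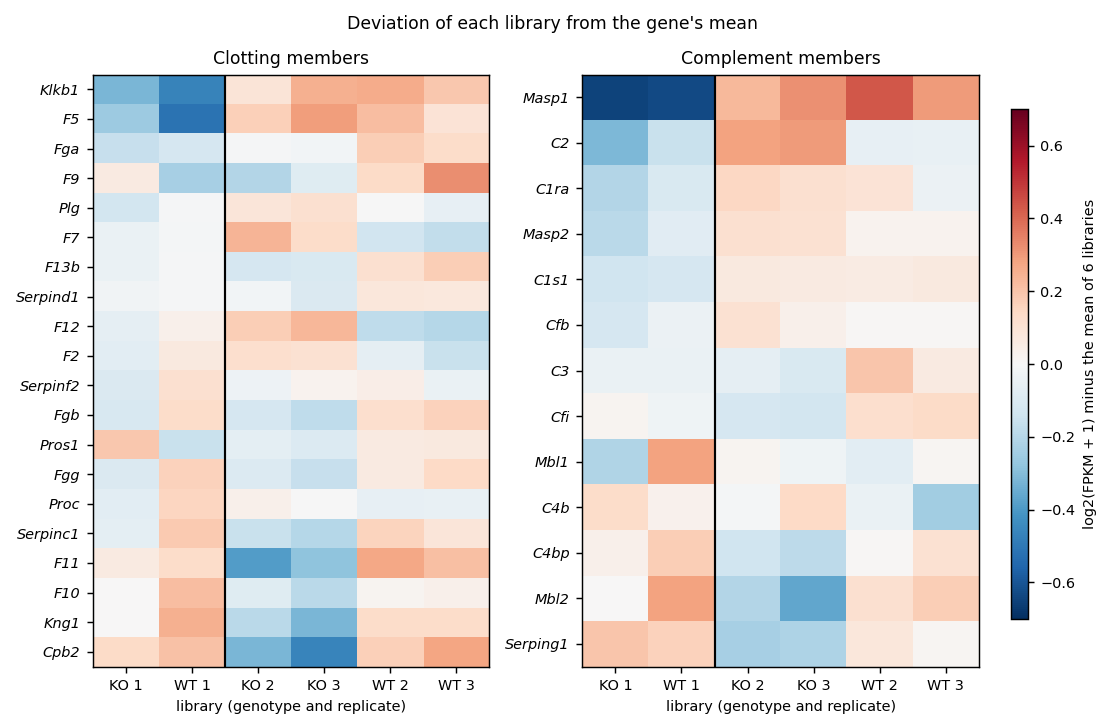
Deviation of each library (columns, those numbered 1 at the left of the black line) from the mean of 6 libraries on the log2(FPKM + 1) scale, with genes ordered by the gap between the libraries numbered 1 and the rest. The top rows, Masp1, Klkb1 and F5, are low in both libraries numbered 1 (gaps -0.96, -0.59 and -0.58), while Cpb2 and Kng1 are low in knockout replicates 2 and 3.

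Calls among these genes depended on those 2 libraries. Without replicate 1 of both genotypes 15 of the 33 passed (limma, 2 libraries a genotype), where 11.9% of all tested genes and 25.0% of the 2787 at least as abundant as Masp1 passed. Of the 15, 11 fell in the knockout, against 4.95% of tested genes: Fgb, Fgg, F9, F11, Kng1, F13b, Serpinc1, Cpb2, Mbl2, Cfi and Serping1. The other 4, F2, F7, F12 and C2, rose, against 6.92%. Shares by direction, here and for the weighted fit below, are over all tested genes, where calls were rarer than among the 2787. The lowest log2 fold changes were -0.61 for Cpb2 (limma, adjusted p = 0.0016), -0.58 for F11 (0.0037), -0.43 for Mbl2 (0.0077) and -0.38 for Kng1 (0.0055), and the highest was 0.39 for F12 (0.0067). By pathway 11 of 20 clotting and 4 of 13 complement genes passed, and whether the pathways differ was not tested. Leaving out replicate 2 or replicate 3 of both genotypes in the same way gave 0 members, with 0.191% and 0.221% of tested genes called. When limma weighted the libraries by quality instead, 8 members passed (Fgb, F7, F11, F12, Kng1, Serpinc1, Cpb2 and Mbl2), against 11.5% of tested genes and 18.8% of the more abundant ones. Of the 8, F7 and F12 rose, against 5.99% of tested genes, and 6 fell, against 5.56%. With a term for replicate 1 in the fit of all 6 libraries none passed, against 1.75% of tested genes and 3.30% of the more abundant ones, and the lowest adjusted p was 0.088, for Mbl2. Within replicate 1 the difference between knockout and wild type was -0.072 for Cpb2 and -0.062 for F11 on the log2 scale, against -0.48 and -0.67 in replicate 2 and -0.74 and -0.49 in replicate 3. For Fgb it was -0.24, -0.24 and -0.34, and for Serpinc1 -0.25, -0.31 and -0.28. For Kng1 it was -0.25, -0.32 and -0.45, and for Mbl2 -0.28, -0.32 and -0.54. The genotypes did not overlap in any of these genes. A lower knockout value under every replicate number follows from that and is no further support. Of the 15 genes called without replicate 1 of both genotypes, 8 had the same sign within replicate 1 and 7 the opposite one. In all 8 the genotypes did not overlap, which fixes that sign, so it is no separate check. The 7 include all 4 that rose: within replicate 1 the difference was -0.14 for F2, -0.033 for F7, -0.10 for F12 and -0.16 for C2. The other 3 were F9 at 0.29, Cfi at 0.047 and Serping1 at 0.029.

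Several members are neighbours in the genome, and their values could be set side by side. C2 and Cfb lie only 87 bases apart on chromosome 17, yet the gap of the libraries numbered 1 was -0.35 for C2 and -0.12 for Cfb. F11 and Klkb1, descended from a common ancestor, lie 4.63 kb apart on chromosome 8, share no 31-base word and differed in pattern: F11 was low in knockout replicates 2 and 3, and Klkb1 in both libraries numbered 1. F7 and F10, 1498 bases apart on chromosome 8, had fold changes of opposite sign (0.21 and -0.18), neither called. Some values are less certain because of shared or overlapping sequence. Of the 31-base words of C4b, 48.3% recur in C4a, which stood at 11.5 to 29.7 FPKM. For C1ra 56.9% recur in C1rb, and for C1s1 33.5% in C1s2. Unlike C4a, C1rb and C1s2 were not in the table, so their levels are unknown here. F2, Serpind1, Masp1 and Masp2 overlap other protein-coding genes in the annotation (Ckap5, Pi4ka, Rtp4 and Tardbp), and strand use in counting is stated nowhere in the labels.

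Of 33 other clotting genes, 32 were in the table, 22 were tested, and none passed (median log2 fold change -0.018, with 6 at an unadjusted p under 0.05). Vtn, vitronectin, which stabilizes a plasminogen activator inhibitor, was the most abundant at 985 ± 42.3 FPKM in knockout livers and 986 ± 158 in wild type (SD, n = 3 each), and Hrg, histidine-rich glycoprotein, stood at 457 ± 15 and 446 ± 46.8. The smallest p was that of Lman1, whose product carries factors V and VIII out of the endoplasmic reticulum. It was at 36.6, 52.7 and 52.5 FPKM in knockout livers and 21.2, 30.6 and 25.8 in wild type, without overlap (log2 fold change of 0.84 with an SE of 0.18; adjusted p = 0.085 by limma), while its partner Mcfd2 was at 95.4 ± 2.84 and 98.6 ± 3.04. Serpina10, the protein Z-dependent inhibitor of factor X, was at 73.3 to 90.2 FPKM in knockout livers and 110 to 122 in wild type (limma, adjusted p = 0.12). Lman1, Mcfd2, Serpina10 and Kng2 were named after their values were seen.

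Of 28 other complement genes, 18 were tested and none passed. Of the 18, 17 had a negative fold change, against 55.8% of all tested genes, with a median of -0.20. The most abundant were Clu, clusterin, at 823 ± 9.16 FPKM in knockout livers and 838 ± 53.3 in wild type, and Cfhr2, a factor H-related gene, at 335 ± 18.0 and 363 ± 32.1. The list includes the 3 chains of C1q, which Kupffer cells make. C1qa was at 20.9 to 27.4 FPKM in knockout livers against 22.9 to 29.2, and C1qb at 23.3 to 42.4 against 36.1 to 38.1, both overlapping and both higher in the knockout in replicate 1. C1qc did not overlap, at 21.2 to 32.2 FPKM in knockout livers and 32.3 to 34.5 in wild type (limma, adjusted p = 0.42; the 3 chains were named after their values were seen). The 10 macrophage and Kupffer cell markers summed to 84.3 to 152 FPKM in knockout livers and 159 to 179 in wild type. Of these 10, 9 had negative fold changes, and Lyz2, lysozyme, fell from 31.9 ± 1.27 to 17.3 ± 3.31 FPKM (log2 fold change of -0.86 with an SE of 0.15; adjusted p = 0.038 by limma). None of the 10 was at 0 in all libraries, and their part in the complement values was not tested. Downstream of C5, among 6 tested terminal complement genes C8a rose from 1.36 ± 0.33 to 217 ± 24.6 FPKM (limma, adjusted p = 1.1e-08) and C8b fell from 226 ± 34.6 to 105 ± 5.57 (limma, adjusted p = 0.0053), and the other 4 did not pass.

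Factors that control plasma protein genes in liver gave no calls among 20 tested (median log2 fold change 0.23, with 4 at an unadjusted p under 0.05). Cebpb, a C/EBP factor of the acute phase, was the most abundant at 153 ± 46.0 FPKM in knockout livers and 112 ± 21.6 in wild type, and Cebpa followed at 109 ± 18.8 and 90.9 ± 24.1. The smallest p was that of Dbp, a clock-controlled factor, at 26.2, 29.4 and 31.6 FPKM in knockout livers against 71.9, 44.8 and 39.2, lower without overlap (log2 fold change of -0.77 with an SE of 0.20; adjusted p = 0.17 by limma). Hnf4a, a regulator of many clotting genes, was at 93.5, 98.2 and 100.02 FPKM in knockout livers and 65.6, 87.4 and 80.4 in wild type, without overlap (log2 fold change of 0.33; adjusted p = 0.44 by limma). Dbp and Hnf4a were named after their values were seen. None of 20 acute phase genes passed (median -0.25, with 5 at an unadjusted p under 0.05). The most abundant were Hp, haptoglobin, at 2153 ± 335 FPKM in knockout livers and 2347 ± 593 in wild type, and Hpx, hemopexin, at 1990 ± 428 and 2215 ± 422. Saa1, serum amyloid A, was at 1403 FPKM in wild type replicate 1 and 163 and 179 in wild type replicates 2 and 3, while the knockout libraries held 289, 256 and 238. In 10 of the 20 acute phase genes both libraries numbered 1 lay above the other 4, against 6.46% of all tested genes: Saa1, Saa2, Apcs, Hp, Hpx, Orm2, Lcn2, Itih3, Itih4 and Fgl1. Lcn2, lipocalin 2, was at 78.7 FPKM in replicate 1 of the knockout, 90.6 in that of the wild type, and 16.5 to 33.1 in the other 4 libraries. Fgl1, a fibrinogen-like protein of hepatocytes, was at 309.9 and 252 FPKM there and at 90.9 to 117 in the others. These are the 2 libraries on which the calls among the members depended, and the part of acute phase levels in those calls was not tested. Saa1, Lcn2 and Fgl1 were named after their values were seen. Of 20 other hepatocyte secreted proteins 1 passed, Serpina6, the corticosteroid-binding globulin gene, which fell from 185 ± 16.5 to 115 ± 10.6 FPKM (adjusted p = 0.043 by limma). The median of the 20 was -0.066.

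Markers of other cell types that make clotting or complement proteins, or that a liver sample can hold, were summed in each library. Of 8 platelet and megakaryocyte markers 5 were in the table, all under 1 FPKM in every library, with sums of 0.94 to 1.5 FPKM in knockout livers and 0.63 to 1.40 in wild type. Sinusoidal endothelial markers summed to 99.7 to 141 FPKM in knockout livers and 116 to 142 in wild type, with 9 of 10 fold changes negative and none called. Stellate cell markers, 10 genes with 9 tested, summed to 86.2 to 90.4 FPKM and 94.0 to 108, and cholangiocyte markers, 8 genes with 1 tested, to 19.1 to 22.2 and 26.5 to 32.7; neither pair of ranges overlapped and no marker was called. The fold change was positive for 4 of the 9 tested stellate markers, and their median was -0.00094. Lymphocyte and neutrophil markers summed to 5.23 to 18.0 FPKM in knockout livers and 5.68 to 22.0 in wild type, highest in replicate 1 of each genotype. Red blood cell markers gave 188 to 383 and 182 to 492 FPKM, and pancreas and adipose markers 21.4 to 33.6 and 25.3 to 44.2. Few genes lay behind the sums for lymphocytes and neutrophils, red cells, cholangiocytes, and pancreas and adipose tissue. At 1 FPKM or more in any library were, in that order, 3 of 10, 2 of 6, 1 of 8 and 1 of 8 of these markers. The part of these cells in the members' values was not tested.

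The genes most alike to F11 and Mbl2 over the 6 libraries were sought among all tested genes, as a description with 6 points that share library and depth. For Mbl2 they were Cdc42 (r = 0.998), Kng1 (0.997) and Psmc6 (0.994), so that the closest genes included another member. For F11 they were Gm15408 (r = 0.995), Il18bp (0.992) and Fam111a (0.992).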

How the data were processed

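Liver RNA of 6 mice was compared by genotype, with samples grouped by the genotype label and numbered as in the titles. Per the submitters' processing notes reads were aligned with HISAT to mm10. Neither the quantification program nor the annotation is named in the labels. The authors deposited 1 table of FPKM values, per the file headers, with 2 decimals and 15960 genes. From it log2(FPKM + 1) was computed and tested with limma 3.58.1 (lmFit, eBayes with trend) in R 4.3.3, for the 9968 genes at 1 FPKM or more in at least 3 samples, with Benjamini-Hochberg adjustment. No counts were used. The scale understates the change of low genes, which matters little at the levels of these genes. The script was checked on simulated data.

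The members, lists and alternatives were chosen with earlier results of these data known. Named genes are all 33 members, and of each other list those past the threshold or, with none, the 2 most abundant, plus those said to be named after their values were seen. Pairing by replicate number was checked through the correlation of deviations from the group mean (0.30, 0.20 and 0.157 for numbers 1, 2 and 3). For number 3 the highest correlation was with another number (0.212). The fit with the replicate as a block was kept as an alternative because all same-numbered pairs were above 0.1. Deviations were centred within each genotype, so a shift shared by the libraries numbered 1 can raise the other pairs too. The correlations therefore cannot show that samples were paired by number. Depth was estimated from steps in low values of short genes, of which 68.8% to 74.4% were whole to within 0.15 of a step. Without steps 30% would be at a fixed depth. The depth was the best of a grid of trial values, so the share without steps would be above 30%, and it was not computed. Positions and promoters (GRCm38.p6, the assembly of mm10) are from RefSeq, and shared 31-base words were counted in GENCODE transcripts.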

Additional observations from a re-analysis of the deposited data

How the results depend on the processing

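With the replicate as a block no clotting or complement member was called, as in the fit without it, and 72 genes were called in all against 76. The block thus changed no member's call. Counts over all genes were 32 with no filter on low values, 36 at 5 FPKM or more in 3 samples, 1151 with sample weights, 1183, 19 and 22 without replicate 1, 2 or 3 of both genotypes, and 174 with a term for replicate 1. Leaving out single libraries gave 29 to 211. Clotting members called were 7 with sample weights, 11 without replicate 1 of both genotypes and 0 to 1 without single libraries; complement members were 1, 4 and 0. The clotting median was -0.077 under median-ratio scaling, -0.16 and -0.087 without replicate 1 or 3 of both genotypes, and -0.17 to -0.076 without single libraries. The complement median was -0.11 to 0.062 without single libraries.

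Some uncalled members changed sign, and the cause was not tested. Their values with all libraries lay between -0.067 and 0.044, except -0.15 for Mbl1 and 0.14 for F5. Under median-ratio scaling Proc was at 0.0087 and C1s1 at 0.029. With sample weights Klkb1 was at -0.076, Proc at 0.056 and Pros1 at -0.10. Without replicate 1 of both genotypes Klkb1 was at -0.055, Proc 0.071, Pros1 -0.15, C1s1 0.0017 and Mbl1 0.022. Without replicate 2 of both Masp1 was at 0.0029, Masp2 at -0.016 and Cfb at -0.026, and without replicate 3 of both Klkb1 was at -0.011, Plg -0.017, C1ra -0.025 and Masp2 -0.012. Without single libraries the ranges were -0.22 to 0.17 for Klkb1, -0.087 to 0.30 for F5, -0.062 to 0.042 for Proc, -0.074 to 0.069 for Pros1, -0.031 to 0.15 for C1ra, -0.066 to 0.062 for C1s1, -0.40 to 0.24 for Masp1, -0.034 to 0.12 for Masp2 and -0.034 to 0.078 for Cfb. Counted over members and alternatives, 564 values kept direction and side of the threshold, 24 gained a call and 39 changed sign, with none of the last called. Changing only the filter, the block, the trend or the replicate 1 term leaves every fold change as it was. No sign could change in those fits, so the tally overstates how far directions held. The fits without replicates 2 or 3 of both genotypes and with a replicate 1 term were chosen after seeing the data. Fits on 4 libraries take their spread from 2 libraries a genotype.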
